A study of Mus musculus with 6 samples.

Results

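Respiratory complex I (NADH:ubiquinone oxidoreductase) is the largest enzyme of the mitochondrial electron transport chain, and the genes with symbols beginning with Nduf encode its nuclear subunits and the Ndufaf assembly factors that build it. The members were all genes on the array whose symbol began with Nduf, 44 of 18193 genes named by 1 or more probe sets. They comprised 35 subunit genes (Ndufa, Ndufb, Ndufc, Ndufs or Ndufv followed by a number), 8 assembly factor genes (Ndufaf1 to Ndufaf8) and Ndufab1, the mitochondrial acyl carrier protein, whose name falls outside both groups although the protein is built into the complex. A gene's level was taken from its brightest probe set, and genes above the median brightness were tested. By that filter 41 members were tested, of which 32 were subunits and 8 assembly factors, together with Ndufab1.

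The RNA came from mouse hippocampus and was hybridised to 6 Affymetrix arrays. HuD is encoded by Elavl4 and belongs to the neuronal ELAV proteins, which bind mRNA. On 3 arrays (HuD 1 to 3) the RNA had been recovered with an antibody to the myc tag of a HuD transgene on protein-G beads. On 2 arrays (IgG 1 and IgG 2) it came from beads with non-immune IgG, and 1 array held total input RNA. The sources used here did not give the promoter of the transgene, the strain, age and number of the mice, or whether arrays of a group came from separate animals. The p-values therefore measure only how these arrays spread, and that spread may be technical. The comparisons shared arrays: HuD arrays entered both HuD comparisons, and the IgG and input arrays 2 comparisons each. Their values are therefore given side by side.

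Complex I passes electrons from NADH, through a flavin and a chain of iron-sulfur clusters in its peripheral arm, to ubiquinone, and its membrane arm pumps protons. A set of core subunits carries out this chemistry, of which some are encoded in mitochondrial DNA and the others by Ndufs and Ndufv genes in the nucleus. The accessory subunits surround the core, and assembly factors join modules of the enzyme but are absent from the finished complex. Neurons use much ATP to restore ion gradients, and most of it comes from this chain.

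The Nduf genes are scattered over the genome. Sequences of 3′ untranslated regions were not available here, and any bearing of the DNA before the start on the pulldowns was not tested. As background, that DNA is shown for a few genes. These are the subunit with the largest HuD to IgG difference (Ndufb10), the one that came next and holds a match to the NRF1 pattern (Ndufs5), a subunit not past the threshold (Ndufc2), and the assembly factors with the largest and the smallest difference (Ndufaf7 and Ndufaf8). Each is the 120 bases before the listed start, 5′ to 3′ on the gene's strand, from RefSeq (GRCm38.p6). Capitals mark matches to the patterns below. The windows are chr17:24724424-24724543 (minus strand), chr4:123718187-123718306 (minus strand), chr7:97399883-97400002 (plus strand), chr17:78937015-78937134 (plus strand) and chr11:120098814-120098933 (plus strand), in that order.
Ndufb10: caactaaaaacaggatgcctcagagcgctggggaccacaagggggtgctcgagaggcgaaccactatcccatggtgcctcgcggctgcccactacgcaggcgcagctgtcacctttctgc
Ndufs5: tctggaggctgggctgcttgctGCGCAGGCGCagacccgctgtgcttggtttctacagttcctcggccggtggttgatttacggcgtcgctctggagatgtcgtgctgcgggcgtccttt
Ndufc2: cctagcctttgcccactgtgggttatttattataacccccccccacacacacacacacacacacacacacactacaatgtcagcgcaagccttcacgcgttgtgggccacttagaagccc
Ndufaf7: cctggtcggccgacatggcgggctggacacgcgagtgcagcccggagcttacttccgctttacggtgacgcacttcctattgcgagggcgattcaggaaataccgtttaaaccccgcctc
Ndufaf8: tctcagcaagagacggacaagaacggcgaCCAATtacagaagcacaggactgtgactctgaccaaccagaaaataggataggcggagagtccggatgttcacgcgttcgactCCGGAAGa

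The patterns below are known from promoters of nuclear genes for mitochondrial proteins, or from promoters in general, and were sought on both strands of the 250 bases before the start. No pattern contains another. Windows existed for 31 of the 35 subunit genes and 7 of the 8 assembly factor genes, and for 27025 genes in all. The NRF1 pattern, which is in capitals in the Ndufs5 window and allows any base at its sixth place, was in 4 subunit windows (12.9%) and 1 assembly factor window (14.3%), against 4.23% of all genes. CCGGAAG, bound by ETS factors such as GABP, was in 3 subunit windows (9.68%) and 2 assembly factor windows (28.6%), against 7.83%. AANATGGCG, bound by YY1, was in 2 subunit windows (6.45%) and 0 assembly factor windows, against 1.29%. CCAAT was in 9 subunit windows (29%) and 4 assembly factor windows (57.1%), against 37.5%. These are counts of letters and were not tested.

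Elavl4 itself read 2294.1, 2010.1 and 1688.9 on the HuD arrays, 765.9 and 642.1 on the IgG arrays and 597.3 on the input array. It was higher in HuD than in IgG by 1.46 ± 0.25 (log2, SE; limma adjusted p = 0.00111). The IgG arrays differed from each other more than the HuD arrays did, with an SD of log2 differences across genes of 0.616, against 0.314 to 0.457 for the HuD pairs. The summed signal of excitatory neuron markers was 8281 to 9723 on HuD arrays, 6188 to 6452 on IgG arrays and 6146 on the input array. One gene, Bcl11b, carried that order: the other 7 markers summed to 3553, 3132 and 3664 on HuD arrays, 3883 and 4545 on IgG arrays and 4562 on the input array. That of interneuron markers was 4848 to 7256, 7227 to 8034 and 7792, and that of astrocyte markers 14264 to 16360, 17143 to 22190 and 18296. That of oligodendrocyte markers was 13778 to 18104, 23022 to 28985 and 19226, and that of microglia markers 1475 to 1988, 2920 to 4647 and 4466. No marker was at 0. In HuD against IgG, 5 of 6 tested oligodendrocyte markers and 5 of 6 microglia markers were lower, where 34% of all tested genes were. The part of these cell types in the results below was not tested. The arrays compare pulldowns and input RNA, so these sums do not measure numbers of cells.

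The first comparison asks how large a part of the array's signal each mRNA had with HuD relative to the IgG background. All arrays were scaled to 1 trimmed mean, so the amount of RNA recovered cannot be read from them. Subunit mRNAs were lower in the HuD pulldown as a group: 30 of 32 tested subunits were lower, 0 were higher and 2 did not pass the threshold, in a comparison where 34% of all 9097 tested genes were lower and 21.5% higher (limma, adjusted p under 0.05). With no adjustment, 31 subunits were lower at p under 0.05 and 0 were higher. Their median log2 difference was -1.38 (range -2.20 to -0.45), against -0.28 for all tested genes, which is -1.10 relative to that median. In 29 of 32 subunits all HuD arrays lay below both IgG arrays, as they did for 43.1% of all tested genes.

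**Figure D1:**
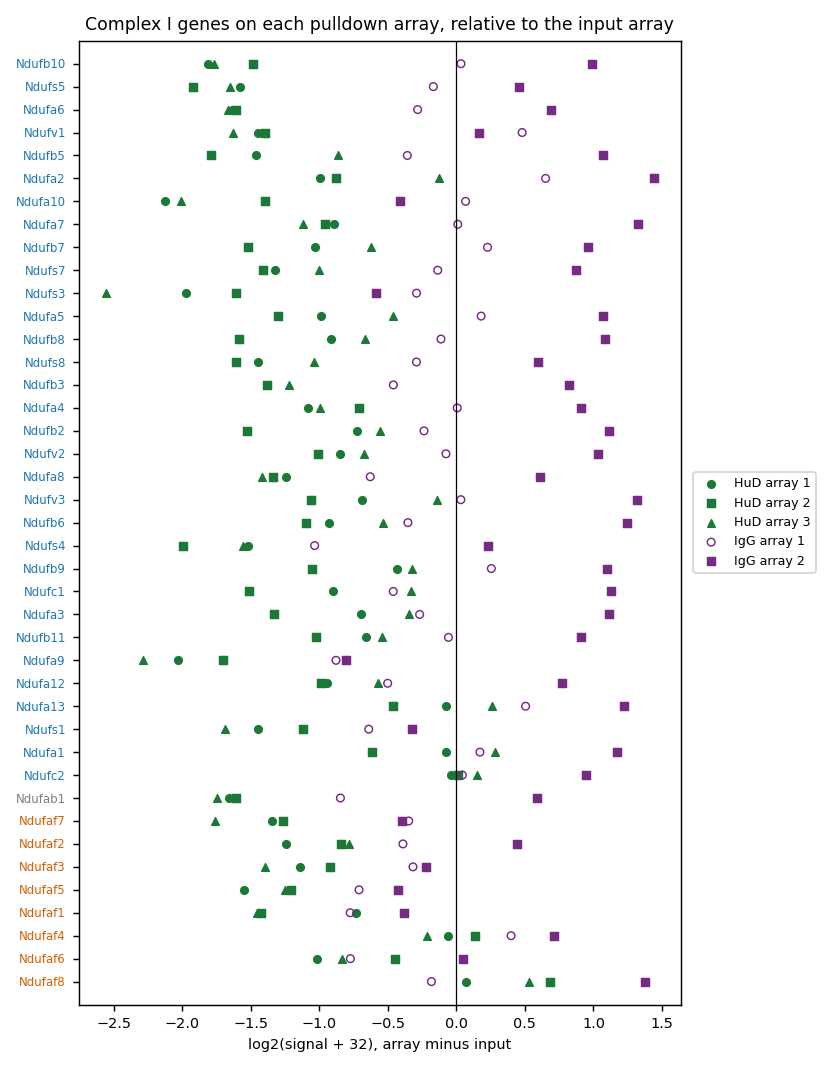
Level of the 41 tested Nduf genes on each pulldown array minus the input array (log2(signal + 32)); each row is a gene, with subunit names in blue, Ndufab1 in grey and assembly factor names in orange, sorted within each group by the HuD to IgG difference. HuD arrays are green and IgG arrays purple; in 29 of 32 subunits all green points lie left of both purple points, and IgG array 2 lies right of IgG array 1 in 29 of 32 subunits.

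The core subunits of the peripheral arm were lower in 6 of 6 tested, with a median of -1.56. Ndufv1, which binds NADH and the flavin, read 1082.7, 1124.7 and 952.0 on the HuD arrays, 4210.4 and 3378.1 on the IgG arrays and 3010.8 on the input array. Every HuD array was thus far below every other array. The HuD mean of 1053 ± 90.1 (SD, n = 3) against 3794 ± 588 (SD, n = 2) in IgG gave a log2 difference of -1.81 ± 0.24 (SE), or 3.51-fold lower (adjusted p = 0.000311). Its partner in the NADH-oxidising module, Ndufv2, an iron-sulfur protein, read 1788.7, 1595.5 and 2026.4 on the HuD arrays, 3081.3 and 6699.8 on the IgG arrays and 3250.9 on the input array (HuD minus IgG -1.33, adjusted p = 0.00482). Its IgG arrays differed by more than 2-fold, and both still lay above the HuD arrays. Ndufs1, which carries several iron-sulfur clusters, read 296.8, 382.0 and 246.0 with HuD, 544.0 and 685.4 with IgG and 865.9 in the input (-0.94, adjusted p = 0.0139). It had the smallest fall of the core subunits, and the groups did not overlap.

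Further down the electron path, Ndufs3 read 354.3, 465.2 and 226.0 with HuD, 1209.6 and 979.3 with IgG and 1487.6 in the input (HuD minus IgG -1.61, adjusted p = 0.00175). Ndufs7, which holds the last iron-sulfur cluster before ubiquinone, read 1257.8, 1183.8 and 1579.8, against 2909.3 and 5889.4 and an input of 3201.8 (-1.62, adjusted p = 0.00167). Ndufs8, the iron-sulfur protein next to it, read 1254.6, 1117.8 and 1671.7, against 2831.6 and 5277.8 and an input of 3473.9 (-1.52, adjusted p = 0.00211). For these 3 genes no HuD array reached an IgG array or the input.

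The accessory subunits, taken by name and so with Ndufa4 but without Ndufab1, were lower in 24 of 26 tested, with a median of -1.35. The Ndufb family, which lies in the membrane arm, was lower in 9 of 9 (median -1.51). Ndufb10, a subunit on the intermembrane space side of the membrane arm, showed the largest difference of any member. It read 519.9, 661.5 and 537.5 on the HuD arrays, 1954.3 and 3829.4 on the IgG arrays and 1909.3 on the input array. The HuD mean was 573 ± 77.2 (SD, n = 3) and the IgG mean 2892 ± 1326 (SD, n = 2), a log2 difference of -2.20 ± 0.30 (SE), or 4.60-fold lower (adjusted p = 0.000394). Ndufb5, an integral membrane subunit, read 1175.0, 930.9 and 1794.2 with HuD, 2566.6 and 6950.9 with IgG and 3300.0 in the input (-1.73, adjusted p = 0.00418). Ndufb7, a protein of the intermembrane space face, read 1702.8, 1202.9 and 2268.8, against 4123.7 and 6881.0 and an input of 3519.3 (-1.66, adjusted p = 0.00162). In both, IgG 2 read well above the input, while IgG 1 lay below the input for Ndufb5 and above it for Ndufb7.

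All 6 Ndufs subunits were lower (median -1.56). Apart from the core members these were Ndufs4 and Ndufs5. Ndufs5, another protein of the intermembrane space face, read 168.2, 126.2 and 158.7 with HuD, 501.4 and 791.8 with IgG and 567.6 in the input. Its log2 difference to IgG was -1.86 ± 0.28 (SE), or 3.64-fold lower (adjusted p = 0.000559). Ndufs4, a peripheral arm subunit whose loss in mice models Leigh syndrome, read 216.7, 147.1 and 210.7, against 316.9 and 808.2 and an input of 683.0 (-1.29, adjusted p = 0.0108). All HuD arrays lay below the others for both genes, and IgG 1 came nearest for Ndufs4. The Ndufv family was lower in 3 of 3.

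The Ndufa family, which spans both arms, was lower in 11 of 12 (median -1.36). Ndufa6, a LYR-motif protein that docks the acyl carrier protein, read 274.8, 280.2 and 268.9 with HuD, 752.0 and 1503.6 with IgG and 922.1 in the input (-1.84, adjusted p = 0.000904). Its HuD arrays lay close together. Ndufa10, a membrane-arm subunit related to nucleoside kinases, read 412.8, 705.8 and 450.8, against 2008.2 and 1430.0 and an input of 1915.9 (-1.67, adjusted p = 0.0012). Ndufa2, a thioredoxin-fold subunit of the peripheral arm, read 1383.0, 1499.4 and 2556.7, against 4400.6 and 7628.0 and an input of 2791.2 (-1.71, adjusted p = 0.00159). Here the HuD 3 array came close to the input while staying below both IgG arrays. Ndufa7, a subunit of the NADH-oxidising module, read 429.1, 408.5 and 360.5, against 828.5 and 2107.2 and an input of 822.8 (-1.66, adjusted p = 0.00288). Ndufa4, named for complex I but known as a subunit of complex IV, read 593.9, 776.7 and 632.3, against 1298.4 and 2460.5 and an input of 1293.2 (-1.39, adjusted p = 0.00327). Ndufab1, which serves fatty acid synthesis as well as complex I, read 442.1, 457.3 and 413.9, against 799.1 and 2218.0 and an input of 1463.0 (-1.54, adjusted p = 0.00495).

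The 2 remaining subunits did not pass the threshold, and both were among the brightest. Ndufa1, a small membrane-arm subunit encoded on the X chromosome, read 6261.8, 4287.1 and 8013.8 with HuD, 7424.9 and 14857.2 with IgG and 6589.4 in the input. The groups overlapped, and the log2 difference was -0.81 ± 0.32 (SE; adjusted p = 0.0523). Ndufc2, a membrane-arm subunit, read 5512.8, 5699.2 and 6285.8 with HuD, 5826.3 and 10909.0 with IgG and 5654.7 in the input (-0.45 ± 0.27, SE; adjusted p = 0.167). Apart from IgG 2 its arrays differed little. Other probe sets of Ndufc2 were dimmer and lower: one read 286.5, 405.1 and 180.1 against 507.7 and 816.9 (-1.13, adjusted p = 0.0182 over all probe sets), and another 1620.1, 1690.7 and 1309.5 against 2157.5 and 3875.1 (-0.90, adjusted p = 0.0238).

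Of the 44 members, 22 were read by more than 1 probe set. Tested as single probe sets, 64 of 76 Nduf probe sets were lower, 0 higher and 12 not past the threshold, where 28.9% of all tested probe sets were lower; another 12 were below the brightness filter. Probe sets of 4 genes were split between lower and not past the threshold: Ndufc2, Ndufs4, Ndufs8 and Ndufab1. One dim Ndufs8 probe set had the opposite sign to the other 5 tested, with 43.2, 107.7 and 71.9 on HuD arrays against 46.1 and 57.5 on IgG arrays (0.30, adjusted p = 0.409). For Ndufs4 one probe set read 103.7, 120.5 and 95.9 against 92.6 and 199.8 (-0.30, adjusted p = 0.433). For Ndufab1 one read 230.4, 159.3 and 243.1 against 180.3 and 500.9 (-0.49, adjusted p = 0.29).

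The other 3 subunit genes were below the filter for genes and were not tested as genes. Ndufa4l2, a relative of Ndufa4 induced by hypoxia, read 19.6, 27.8 and 22.9 with HuD, 8.5 and 3.3 with IgG and 25.4 in the input. Ndufb1 read 42.4, 19.3 and 47.9, against 41.0 and 128.4 and an input of 61.0. Tested as a single probe set, it did not pass the threshold (-0.69, limma adjusted p = 0.114). Ndufb4 read 16.4 or less on all arrays by the probe set that names it alone. A bright probe set shared by Ndufb4 and its near-identical copies Ndufb4b and Ndufb4c read 2941.7, 3129.3 and 3370.1 with HuD, 1581.2 and 6707.6 with IgG and 2791.8 in the input, so that the IgG arrays lay on both sides of all others. Signals of such copies cannot be separated, and shared probe sets were not tested. The one for Ndufs6 and Ndufs6b read 703.6, 549.3 and 760.4 against 1814.8 and 2828.9 (log2 difference -1.72), and the brighter one for Ndufa11 and Ndufa11b 242.1, 300.5 and 382.3 against 828.3 and 586.2 (-1.12). In both of these every HuD array lay below every IgG array.

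Of the assembly factors, 4 of 8 were lower in HuD than in IgG, 0 were higher and 4 did not pass the threshold, where 34% of all tested genes were lower (5 lower and 0 higher at an unadjusted p under 0.05). Their median log2 difference was -0.70 (range -1.08 to -0.17), which is -0.41 relative to all tested genes. In 5 of 8 all HuD arrays lay below both IgG arrays, as in 43.1% of all tested genes. With quantile normalization or 75th percentile centring 1 of 8 was lower, where 25.1% and 18.7% of all genes were. Ndufaf7, a mitochondrial methyltransferase, had the largest difference. It read 81.5, 88.0 and 53.0 with HuD, 194.1 and 186.4 with IgG and 255.9 in the input, a log2 difference to IgG of -1.08 ± 0.26 (SE), or 2.12-fold lower (adjusted p = 0.00506). Its IgG arrays were nearly equal, and the groups were far apart.

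Ndufaf2 joins late, in place of its relative, the subunit Ndufa12. It read 91.9, 131.7 and 138.8 with HuD, 192.3 and 366.7 with IgG and 262.1 in the input (-0.98 ± 0.30, SE; adjusted p = 0.0179). Ndufa12 read 2511.2, 2439.7 and 3265.7, against 3431.9 and 8315.8 and an input of 4873.9, a log2 difference of -0.97 ± 0.33 (SE; adjusted p = 0.0286). The assembly factor and the related subunit thus had differences closer than their standard errors. Ndufaf3, which builds the ubiquinone module, read 126.8, 152.4 and 101.0 with HuD, 249.1 and 268.2 with IgG and 318.2 in the input (-0.88, adjusted p = 0.0137). Its binding partner Ndufaf4 read 292.0, 340.7 and 259.0, against 414.4 and 522.6 and an input of 306.6 (-0.60 ± 0.26, SE; adjusted p = 0.067). HuD and IgG arrays did not overlap for either partner, and the Ndufaf4 input lay among its HuD arrays. A second Ndufaf4 probe set read 264.1, 172.2 and 236.2 with HuD, 244.2 and 346.4 with IgG and 467.5 in the input, so there the groups overlapped and the input was above every HuD array.

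Ndufaf5, known in human cells to hydroxylate an arginine of the Ndufs7 protein, read 78.7, 108.4 and 103.8 with HuD, 166.0 and 209.0 with IgG and 292.1 in the input (-0.77, adjusted p = 0.024). Ndufaf8, its stabilising partner in human cells, was the brightest assembly factor. It read 1126.9, 1743.0 and 1560.1 with HuD, 941.5 and 2833.7 with IgG and 1072.8 in the input, so the IgG arrays lay on both sides of the HuD arrays (-0.17 ± 0.40, SE; adjusted p = 0.732). Against IgG 1 alone its difference was 0.61 and against IgG 2 alone -0.95. Ndufaf1, part of the complex that assembles the membrane arm, read 192.5, 106.5 and 104.3, against 185.9 and 253.5 and an input of 341.1 (-0.62 ± 0.30, SE; adjusted p = 0.0918). Ndufaf6, needed for early steps of assembly, was the dimmest and read 41.3, 76.7 and 51.2, against 54.6 and 120.8 and an input of 116.1 (-0.40 ± 0.30, SE; adjusted p = 0.269).

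**Figure D2:**
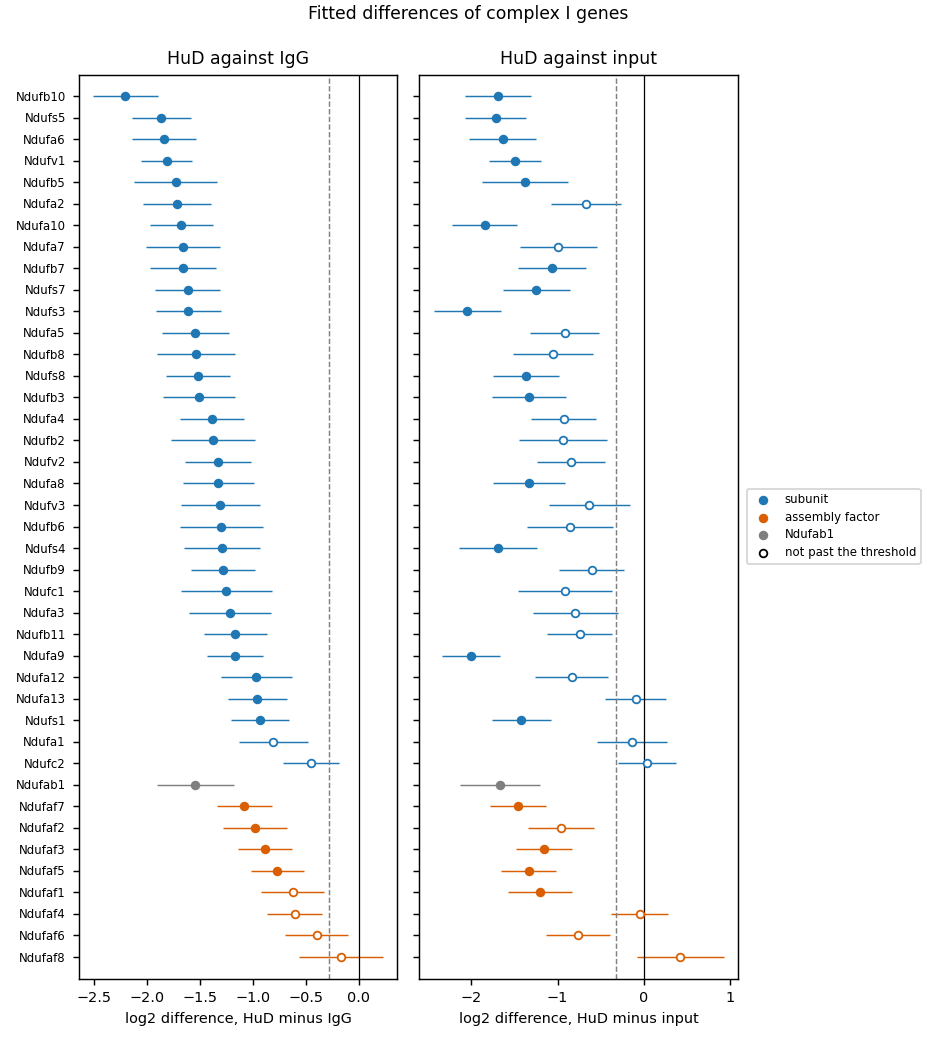
Fitted log2 differences of the 41 tested Nduf genes, HuD minus IgG (left) and HuD minus input (right), with bars of 1 standard error; filled points passed the limma adjusted p threshold of 0.05 and dashed lines mark the median of all tested genes. In the left panel most subunits lie further left than the assembly factors, with medians of -1.38 and -0.70, and in the right panel they overlap, with medians of -1.02 and -1.06.

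Subunits and assembly factors thus differed in the size of the fall against IgG by 0.69 on the log2 scale (median of subunits minus median of assembly factors, -0.69), a difference that was described and not tested. The size differed between the IgG arrays. Relative to the input array, the subunit median was -1.02, -1.36 and -0.77 on HuD arrays 1 to 3, and the assembly factor median -1.08, -0.89 and -1.04. On IgG 1 the medians were -0.12 and -0.37, and on IgG 2 they were 0.95 and -0.09. IgG 2 stood apart for subunits: it read above IgG 1 in 29 of 32 subunits, with a median ratio of 1.98 (0.712 to 3.05), and in 7 of 8 assembly factors, with a median ratio of 1.31. The medians of all tested genes were -0.07 on IgG 1 and -0.06 on IgG 2, and IgG 2 read above IgG 1 in 4547 of 9097. Subunits of complex III, complex IV and ATP synthase shared the shift, with medians of -0.05 on IgG 1 and 0.81 on IgG 2.

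**Figure D3:**
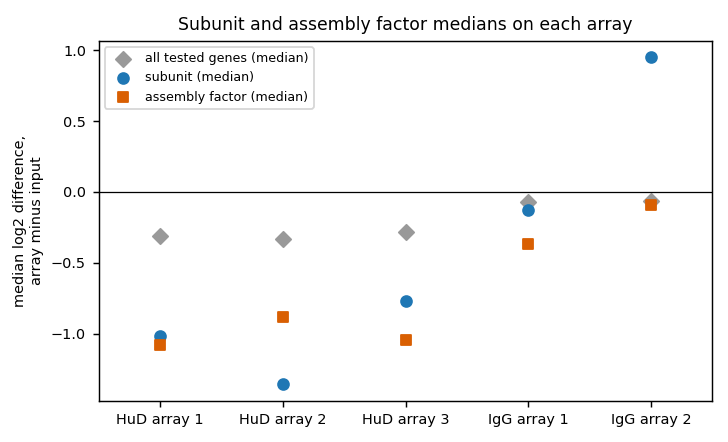
Median log2 difference to the input array on each pulldown array, for all 9097 tested genes (grey), 32 subunits (blue) and 8 assembly factors (orange). The subunit median is 0.95 on IgG array 2 and -0.12 on IgG array 1, while the assembly factor medians of these arrays are -0.09 and -0.37.

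Without IgG 2, 21 of 32 subunits were lower in HuD than in IgG (median -0.90) and 2 of 8 assembly factors (median -0.51), a gap of -0.40, with 32% of all genes lower. Without IgG 1, 32 subunits (median -1.95) and 7 assembly factors (median -0.92) were lower, a gap of -1.03, with 29% of all genes lower. RNA quality measures also differed between the arrays. The ratio of 3′ to 5′ Gapdh probe sets was 11.5 on IgG 1 and 18.6 on IgG 2, and 14.7, 10.4 and 16.4 on HuD arrays 1 to 3, against 8.27 in the input. For Actb it was 17.9 on IgG 1 and 34.4 on IgG 2. On HuD arrays 1 to 3 the Actb ratio was 15.4, 5.55 and 31.2, against 11.8 in the input. Array HuD 2, with the lowest ratio of the HuD arrays, had the lowest HuD signal in 19 of 32 subunits, and HuD 3, with the highest ratio, the highest in 20 of 32. For all tested genes these shares were 37% and 33.5%, and for assembly factors the counts were 0 and 1 of 8. The part of RNA quality in the subunit signals was not tested.

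The scaling of the arrays moved all genes together. With each array centred on its 75th percentile, the median of all genes rose from -0.28 to 0.03, and 59.8% of the calls were higher in HuD rather than 38.8%. On that scale 20 of 32 subunits and 1 of 8 assembly factors were lower, where 18.7% of all genes were. Centring shifts all genes of an array alike, so the gap between the subunit and assembly factor medians stayed at -0.69 by construction. With quantile normalization, which can change that gap, it was -0.99. Over all alternative settings, 20 subunits stayed lower in each, among them Ndufb10, Ndufs5, Ndufa6, Ndufv1, Ndufs3, Ndufs7 and Ndufs8. Among assembly factors only Ndufaf7 stayed lower in each setting in which it was tested.

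The second comparison set HuD against total input RNA, which rests on 1 input array assumed to vary like the others. Of the 32 subunits 15 were lower, 0 were higher and 17 did not pass the threshold, where 25.9% of all genes were lower and 15.7% higher (limma; unadjusted, 19 were lower and 0 higher at p under 0.05). The median was -1.02 (-0.70 relative to all genes), and in 29 of 32 subunits all HuD arrays lay below the input, against 52.7% of all genes. All 15 were also lower than IgG. The largest difference was that of Ndufs3, whose values are given above, at -2.05 ± 0.39 (SE), or 4.14-fold below the input (adjusted p = 0.00387). Ndufa9, a peripheral-arm subunit of the short-chain dehydrogenase family, read 378.5, 483.8 and 313.3 with HuD, 882.5 and 930.0 with IgG and 1650.5 in the input. It was 4.02-fold below the input (-2.01 ± 0.34, SE; adjusted p = 0.00264) and lower than IgG by less (-1.17, adjusted p = 0.00414), since both IgG arrays lay below the input too. Ndufa10 was lower than the input by a log2 difference of -1.85 (adjusted p = 0.00469) and Ndufs5 by -1.72 (adjusted p = 0.00498).

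By role, 5 of 6 core subunits were lower than the input, the exception being Ndufv2 (-0.85, adjusted p = 0.103), which passed once a suffix that splits the array titles into 2 sets was a block, and all 6 Ndufs genes were. Of the accessory subunits 10 of 26 were lower. By family 4 of 12 were lower in Ndufa, 4 of 9 in Ndufb and 0 of 2 in Ndufc. The share of all tested genes that were lower was 25.9%. Ndufa1 (-0.14, adjusted p = 0.804), Ndufa13, a membrane-arm subunit also known as GRIM-19 (-0.09, adjusted p = 0.845), and Ndufc2 (0.04, adjusted p = 0.925) were the closest to the input. Ndufab1 was lower (-1.67, adjusted p = 0.0159).

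Among assembly factors 4 of 8 were lower than the input, where 25.9% of all tested genes were. They were Ndufaf7 (-1.45, adjusted p = 0.0067), Ndufaf5 (-1.34, adjusted p = 0.00895), Ndufaf1 (-1.21, adjusted p = 0.0254) and Ndufaf3 (-1.15, adjusted p = 0.0174). Ndufaf1 and Ndufaf3 did not pass with quantile normalization or 75th percentile centring, nor Ndufaf1 without the brightness filter. With the title suffix as a block Ndufaf1 did not pass, and Ndufaf2 and Ndufaf6 did. None was higher; Ndufaf8 had a positive difference (0.43 ± 0.50, SE; adjusted p = 0.506). The assembly factor median was -1.06, and the gap to the subunits that was seen against IgG was 0.03 here. That gap moved with the settings: it was -0.63 with quantile normalization, -1.21 with a filter at the 75th percentile, which left 2 assembly factors, and 0.18 with a pseudocount of 1. Ndufaf5, Ndufaf7 and Ndufaf3 were lower than both IgG and the input, Ndufaf2 than IgG alone and Ndufaf1 than the input alone.

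Dimmer subunits lay further below the input than bright ones. Over the 32 subunits the mean log2 signal and the HuD to input difference had a Pearson correlation of 0.82 and a Spearman correlation of 0.874, against 0.456 and 0.488 for the HuD to IgG difference; genes share the same arrays, and no test was made. The trend was not particular to subunits: the median of all tested genes against the input was -0.32, and 0.07 for those above the 75th percentile of brightness. Among all tested genes 25.9% were lower than the input and 34% lower than IgG. Of the 12 brightest subunits 1 was lower than the input (median -0.77), and 10 were lower than IgG (median -1.23). Of the 12 dimmest, 9 were lower than the input (median -1.66) and 12 were lower than IgG (median -1.50). They were still brighter than most assembly factors: without Ndufaf8 the assembly factors had mean log2 signals of 6.71 to 8.56, a range that held 2 of the 32 subunits, Ndufs4 and Ndufs5. Brightness and class could thus not be separated. Within 21 genes with more than 1 tested probe set, the brightest was the less negative one in 15 genes against the input and in 10 against IgG.

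**Figure D4:**
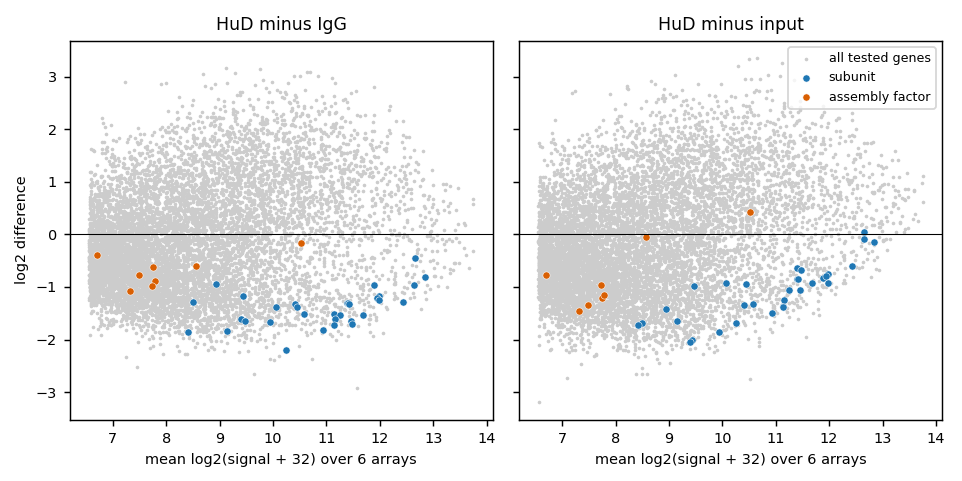
Fitted log2 difference against mean log2(signal + 32) over the 6 arrays, for HuD minus IgG (left) and HuD minus input (right); grey points are all 9097 tested genes, blue points subunits and orange points assembly factors. On the right the subunits climb from about the -2.05 of Ndufs3 towards 0 with increasing signal.

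The scaling also bore on this comparison. With centring on the 75th percentile 8 of 32 subunits were lower than the input, where 11.4% of all genes were and 65.3% of the calls were higher in HuD rather than 37.7%. With quantile normalization 26 of 32 were lower, where 17.4% of all genes were, with 48.8% of the calls higher.

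The third comparison, IgG against input, describes the background beads. None of the 41 tested members passed the threshold (limma), where 0% of all genes were lower and 0.022% higher. With no adjustment 2 subunits were higher and 1 lower at p under 0.05, and 0 assembly factors. The subunit median was 0.42, the assembly factor median -0.32 and that of all genes -0.07. Both IgG arrays read above the input in 12 of 32 subunits and in 1 of 8 assembly factors, against 26.1% of all genes, and both read below it in 3 and 4, against 36.5%. IgG 2 alone was above the input in 28 of 32 subunits and IgG 1 in 13, against 4079 and 4072 of all 9097 tested genes. The largest positive differences were those of Ndufa2 (1.05, adjusted p = 0.699), Ndufa13 (0.87, adjusted p = 0.703) and the LYR-motif subunit Ndufb9 (0.68, adjusted p = 0.74), and the largest negative one was that of Ndufa9 (-0.84, adjusted p = 0.702). Ndufa13 read 5107.2, 3903.6 and 6450.5 with HuD, 7653.9 and 12635.3 with IgG and 5384.6 in the input, so its HuD arrays lay around the input and its IgG arrays above. Ndufb9 read 4289.1, 2778.5 and 4645.2, then 6943.2 and 12476.6, and 5814.8 in the input, an order of HuD below input below IgG.

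The other respiratory complexes allow the subunit values to be placed. Of 37 tested subunits of complex III, complex IV and ATP synthase, 33 were lower in HuD than in IgG and 0 higher, with a median of -1.11, where 34% of all genes were lower and 21.5% higher. As for complex I subunits, IgG 2 read above IgG 1 in most of them, 34 of 37. Against the input 11 of 37 were lower, close to the 25.9% of all genes. Uqcrh, a complex III subunit, read 371.2, 445.5 and 285.1 with HuD, 1212.9 and 2004.5 with IgG and 1260.2 in the input (HuD minus IgG -2.02, adjusted p = 0.000523). The ATP synthase epsilon subunit gene Atp5e read 397.4, 325.2 and 403.0 with HuD, 1054.3 and 2295.9 with IgG and 814.8 in the input (-1.97, adjusted p = 0.000874). The HuD values of both genes lay below all others, as those of Ndufb10 did. Complex II, which feeds electrons into the chain beside complex I, was mixed: Sdhb (-1.53, adjusted p = 0.00138) and Sdhd (-0.82, adjusted p = 0.0459) were lower, Sdha did not pass the threshold (-0.56, adjusted p = 0.0643) and Sdhc was higher. Sdhc, which anchors the complex in the membrane, read 611.1, 1042.7 and 728.2 with HuD, 176.2 and 303.5 with IgG and 579.5 in the input (1.61, adjusted p = 0.00185), so every HuD array was above both IgG arrays; HuD minus input was 0.40 (adjusted p = 0.427).

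Complex I is also assembled by proteins that do not carry the Nduf name. Of 8 tested, 4 were lower in HuD than in IgG and 0 higher (median -0.82), where 34% and 21.5% of all genes were. Dmac1, a factor for the distal membrane arm, read 272.7, 167.8 and 221.5 with HuD, 433.5 and 765.8 with IgG and 614.2 in the input (-1.29, adjusted p = 0.00517). Dmac2 (-1.14, adjusted p = 0.00267) and Foxred1 (-0.86, adjusted p = 0.0127) were lower as well. Timmdc1, a membrane-arm assembly factor, had the opposite sign: it read 185.1, 280.7 and 367.2 with HuD, 78.4 and 202.3 with IgG and 103.3 in the input (0.90, adjusted p = 0.0512). Its HuD arrays were all above the input and overlapped with IgG 2.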

How the data were processed

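Each of the 6 arrays gave 1 deposited intensity per probe set on a linear scale. The authors had scaled the arrays to 1 trimmed mean, as the deposited intensities show; the sources used here name no software or method. A platform annotation gave 34945 of 45101 probe sets 1 gene symbol, 932 several and 9160 none, and 64 controls were left out. Each gene was read by its probe set with the highest mean, and the 9097 of 18193 genes above the median of mean log2 signal were tested. Limma 3.58.1 in R 4.3.3 fitted 1 mean per group to log2(signal + 32) over all arrays (eBayes with trend, 3 residual and 8.4 prior degrees of freedom), with Benjamini-Hochberg adjustment over all tested genes and a threshold of 0.05. Folds are on that log2 scale and understate changes of dim genes. The fit was tested on simulated data in which all arrays had the same spread and few genes changed. Those data cannot show how the fit does where the IgG arrays differ more, as here. The number of arrays limits the precision. Arrays were numbered within a group as deposited, and the numbers are only names.

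The members, the gene lists and the tests were chosen with earlier results of these data known. Genes described are all tested Ndufaf genes, the nuclear core subunits, the 8 other subunits with the largest HuD to IgG difference, subunits not lower, the 4 with the largest difference to the input in each pulldown, Ndufab1, Ndufa4, Ndufa4l2, genes with split probe sets and up to 4 of each other list. Ndufa12 and the shared probe sets were added after their values were seen. Lists covered complexes II to V, assembly, biogenesis and cell type markers. Alternatives were pseudocounts, scalings, filters, averaged probe sets, title blocks and leaving out each array.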

Additional observations from a re-analysis of the deposited data

How the results depend on the processing

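In all alternatives run, the 30 subunits lower in HuD than in IgG stayed between 20 (75th percentile centring) and 32; leaving out single arrays gave 21 to 32. Without the brightness filter 1 subunit, Ndufa4l2, was higher. The 4 assembly factors lower than IgG became 1 with quantile normalization, 1 with 75th percentile centring, 2 without a filter and 0 of 2 tested with a filter at the 75th percentile; leaving out single arrays gave 1 to 7. Of all tested genes, 25.1% were lower than IgG with quantile normalization and 18.7% with 75th percentile centring. Without a filter 15% were, and 29.2% with a filter at the 75th percentile. The assembly factor median was -0.38 with 75th percentile centring, -0.39 with that filter, and -0.92 to -0.51 when single arrays were left out. The 15 subunits lower than the input became 26 with quantile normalization, 8 with 75th percentile centring, 8 without a filter and 9 to 24 when single arrays were left out (24 without either IgG array and 9 without HuD 1 or HuD 2). With IgG 1 or IgG 2 left out, the subunit median against the input stayed at -1.02. The share of all genes that passed rose as well. IgG arrays enter this comparison only through the shared estimate of spread. Of all tested genes, 17.4% were lower than the input with quantile normalization, 11.4% with 75th percentile centring and 7.99% without a filter. The share was 12.8% without HuD 1 and 21.1% without HuD 2. The cause of the other changes was not tested. No member's called difference changed its sign. The subunit to assembly factor gap against the input ran from -1.21 to 0.18 and was -0.63 with quantile normalization. Title numbers pair 2 HuD with 2 IgG arrays, and a title suffix splits all 6 arrays into 2 sets, with HuD 1, IgG 1 and the input in one. Deviations from group means correlated at -0.03 for the pair numbered 1 and 0.395 for the pair numbered 2. For HuD 2 with IgG 1, which were not set as a pair, the value was 0.337. Deviations of 2 IgG arrays mirror each other, so these values cannot decide on pairing. The main fit used no pairing. As a replicate block, the suffix gave 31 subunits and 4 assembly factors lower than IgG, where 32.2% of all genes were. Against the input it gave 19 and 5, where 19.1% of all genes were lower. The number as a block gave 31 and 5 lower than IgG, where 36% of all genes were. With the suffix Ndufa12, Ndufa4, Ndufa5 and Ndufv2 were also lower than the input, and the subunit median for IgG against input was 0.18 rather than 0.42. Signals near background were not marked in the data, so dim members carry no detection call.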

Other observations

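Assembly genes of complexes III, IV and V went both ways: of 22 tested, 4 were higher and 9 lower in HuD than in IgG (median -0.64), where 21.5% and 34% of all genes were. Ttc19, a complex III factor, read 1247.6, 938.8 and 1224.4 with HuD, 235.1 and 374.2 with IgG and 585.1 in the input (1.82, limma adjusted p = 0.000643). Coa5, a complex IV factor, read 5174.9, 4643.6 and 5343.2, against 1428.0 and 1912.0 and an input of 1679.0 (1.59, adjusted p = 0.000519). Surf1, also of complex IV, read 348.2, 296.9 and 402.2, against 845.9 and 1588.3 and an input of 1184.3 (-1.66, adjusted p = 0.00147). In these 3 genes HuD and IgG arrays did not overlap. Uqcc2, a complex III factor, read 736.3, 628.8 and 969.3, against 1207.7 and 5533.9 and an input of 1409.7 (-1.72, adjusted p = 0.0123), with most of the difference on IgG 2.

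Of 10 tested genes of mitochondrial transcription and biogenesis, 2 were higher and 4 lower in HuD than in IgG, where 21.5% and 34% of all genes were. Ppargc1a, a coactivator of nuclear genes for mitochondrial proteins, read 2081.0, 2284.7 and 1991.7 with HuD, 1013.4 and 861.7 with IgG and 687.6 in the input (1.15, adjusted p = 0.00261). Polrmt, the mitochondrial RNA polymerase, read 58.8, 78.2 and 63.4, against 268.1 and 372.9 and an input of 303.8 (-1.82, adjusted p = 0.000432). Tfam, which packages mitochondrial DNA, was lower too (-1.08, adjusted p = 0.00384), as was Pprc1, a relative of Ppargc1a (-1.12, adjusted p = 0.00279). Of 4 complex II assembly genes 1 was lower, Sdhaf1 (-1.16, adjusted p = 0.008).

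Among the marker lists for HuD against IgG, set beside 21.5% of all genes higher and 34% lower, 2 of 7 excitatory neuron markers were higher and 1 lower, 1 of 5 interneuron markers higher and 3 lower, and 1 of 7 astrocyte markers higher and 4 lower. Of 2 endothelium markers 1 was lower, of 2 choroid plexus markers 0 changed at the threshold, and 0 blood markers were tested.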
